A study of Homo sapiens with 12 samples.

Results

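The genes described here are 10 regulators and effectors of the ATF4 and CHOP stress response: ATF4, ATF5, DDIT3, TRIB3, TRIB1, CHAC1, CEBPB, CEBPG, NUPR1 and PPP1R15A. They were chosen by name with earlier results of these data known, so their counts against all genes are a description. Every probe set that the platform annotation pairs with 1 of these symbols was taken. This gave 18 of the 54613 probe sets on the array and 10 of the 19775 genes that could be named. The cells were INA-6, a line from a human myeloma that needs interleukin-6 to grow, and their RNA was measured on 12 Affymetrix HG-U133 Plus 2.0 arrays. A group of 4 arrays came from cells given the solvent DMSO, another 4 from cells given SB590885, an inhibitor of Raf kinases, and the last 4 from cells given PD325901, an inhibitor of MEK. The titles call the treated cells B-Raf-inhibited and MEK1-inhibited, and Raf activates MEK, which activates ERK. All 3 groups grew with 2 ng/ml interleukin-6 and 10% serum, so the DMSO arrays are also of cells under interleukin-6. Doses and treatment times were not stated in the labels used, so each difference between SB590885 and PD325901 is between the treatments as applied. The design text calls the 4 arrays of a group biological replicates of 1 cell line. The p-values measure the spread between these arrays. RNA of whole cultures was measured, so a change in the share of cells that express a gene and a change in RNA per cell cannot be told apart.

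ATF4 is a transcription factor whose protein is made when the translation factor eIF2 is phosphorylated, as happens on shortage of amino acids, unfolded protein in the endoplasmic reticulum, viral RNA or loss of heme. It pairs with C/EBP proteins and turns on genes for amino acid uptake and synthesis, and also DDIT3, which encodes CHOP, a second transcription factor tied to cell death under lasting stress. Several targets act back on the response: the PPP1R15A protein (GADD34) brings a phosphatase to eIF2, and the pseudokinase TRIB3 binds and restrains ATF4 and CHOP. Plasma cells and myeloma cells secrete large amounts of immunoglobulin and rely on these stress pathways. Because ATF4 is controlled largely at translation, its RNA level is not a measure of its protein.

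Expression is given on the log2 scale, 1 value per probe set and array. The median over all probe sets and arrays was 6.92 and the lowest value of an array lay between 5.85 and 6.01, so values near 6.0 to 6.9 are near the low end of the scale. Of 8 plasma cell and myeloma markers, 8 lay above that median, and of 7 monocyte markers 0 did. In the other marker lists 2 of 4 B cell genes, 3 of 6 T and NK cell genes, 2 of 5 fibroblast, 1 of 2 erythroid and 1 of 4 endothelial genes lay above it, the highest being HBB at 8.83, PECAM1 at 8.62 and COL1A1 at 8.25. With SB590885, 3 of the 8 plasma cell markers fell (SLAMF7 by 0.90, XBP1 by 0.62 and SDC1 by 0.55), as did PAX5 of the B cell list (by 0.45) and CD8A of the T and NK cell list (by 0.33). With PD325901 0 markers were called. Their part in the results was not tested. Arrays 3 and 4 of each group carry an added R in a second label, and the labels used do not say what it marks. The SD over probe sets was 1.52 to 1.55 on the 6 arrays without this mark and 1.38 to 1.45 on the 6 with it. Same-numbered arrays of different groups deviated together and are also compared as pairs. Results are also given with the replicate number as a block, which the main fit leaves out. Among arrays alike in the R mark, SB590885 shared little with its same-number arrays. Differences between arrays numbered 2 and 1, and 4 and 3, correlated at r = 0.212 and 0.0675 for SB590885 with DMSO. They were 0.186 and 0.100 for SB590885 with PD325901, and 0.859 and 0.346 for DMSO with PD325901. Results with the R mark as a term are therefore given too. The 3' minus 5' signal of GAPDH, a sign of RNA quality, was 0.37 ± 0.03 (SD, n = 4) with DMSO, 0.44 ± 0.04 with SB590885 and 0.43 ± 0.06 with PD325901. Its part in the results was not tested.

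With SB590885, DDIT3, CHAC1 and PPP1R15A rose against DMSO, by 0.58 to 1.01 on the log2 scale. These were 3 of the 10 genes at an adjusted p under 0.05, against 3.28% of all genes called in either direction. With the replicate block 8 of 10 were higher and 0 lower, against 18.9% of all genes called. The exceptions were ATF5 and NUPR1. With the R mark as a term in place of the number, 6 passed, against 16.8% of all genes, and TRIB1 (adjusted p = 0.152) and CEBPB (0.0774) did not. In same-number pairs 8 of the 10 were higher in 4 of 4, against 17.1% of all genes. The median difference of the 10 genes was 0.37, against 0.00 over all genes, and 9 of the 10 differences were above 0, against 52.1% of all genes.

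With PD325901, 0 of the 10 genes were called by limma against DMSO, against 0.592% of all genes, and 3 had an unadjusted p under 0.05 (TRIB3, TRIB1 and CEBPB), against 6.80% of all genes. With the replicate block 4 were called, against 8.14% of all genes: TRIB1 higher, and ATF4, TRIB3 and CEBPB lower. With the R mark as a term 3 passed, against 6.52% of all genes, and ATF4 did not (adjusted p = 0.0814). In same-number pairs 5 of the 10 were lower in 4 of 4, against 18.5% of all genes: ATF4, ATF5, TRIB3, CEBPB and CEBPG. The median difference was -0.07.

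The difference between the 2 inhibitors was tested directly for all 10 genes, as the difference of their means. The DMSO arrays enter this test through the shared estimate of the spread. ATF4, DDIT3, TRIB3 and CHAC1 were higher with SB590885 than with PD325901, 4 of 10 against 2.82% of all genes called. With only the 8 arrays of the inhibitors fitted, the calls of ATF4 and DDIT3 were lost (adjusted p = 0.0817 and 0.139). With the replicate block 8 were higher and 1, TRIB1, lower, against 18.1% of all genes. With the R mark as a term 8 passed, against 16.1% of all genes, and TRIB1 did not (adjusted p = 0.151). Pairs were higher with SB590885 in 4 of 4 for 8 genes, against 18.2% of all genes. Over all 18 probe sets, adjusted over 54613 probe sets, 2 were called for SB590885 against DMSO (1.96% of all probe sets), 0 for PD325901 against DMSO (0.346%) and 3 for SB590885 against PD325901 (1.78%).

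**Figure D1:**
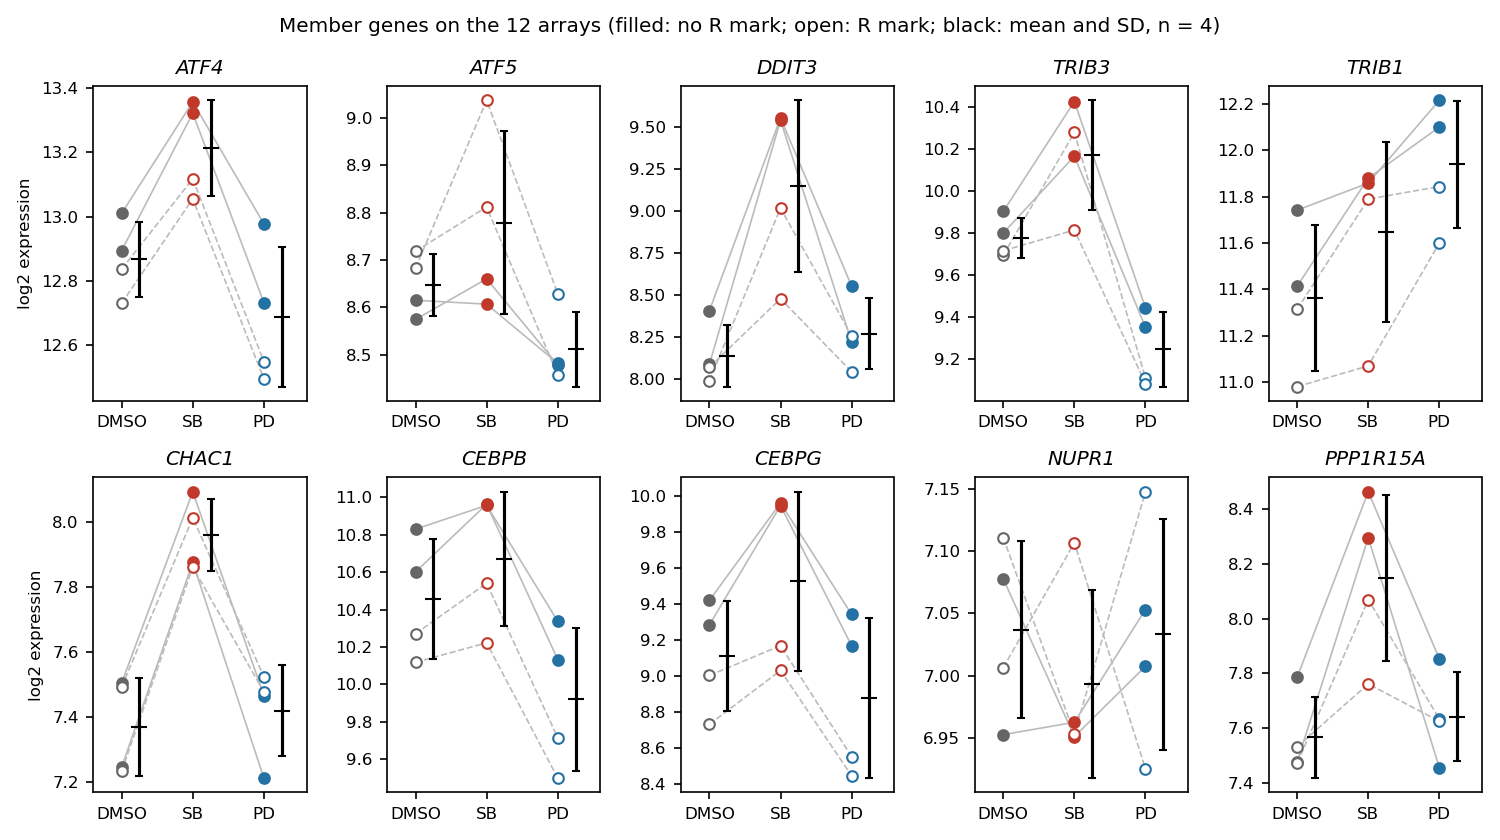
Each panel plots the log2 expression of 1 gene (vertical axis, its own range) on the 4 arrays of each group, with same-number arrays joined, open points for arrays with the R mark and black bars for mean and SD. The SB590885 points of ATF4, DDIT3 and CHAC1 all lie above the DMSO points, and the PD325901 points of TRIB3 all lie below them.

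**Figure D2:**
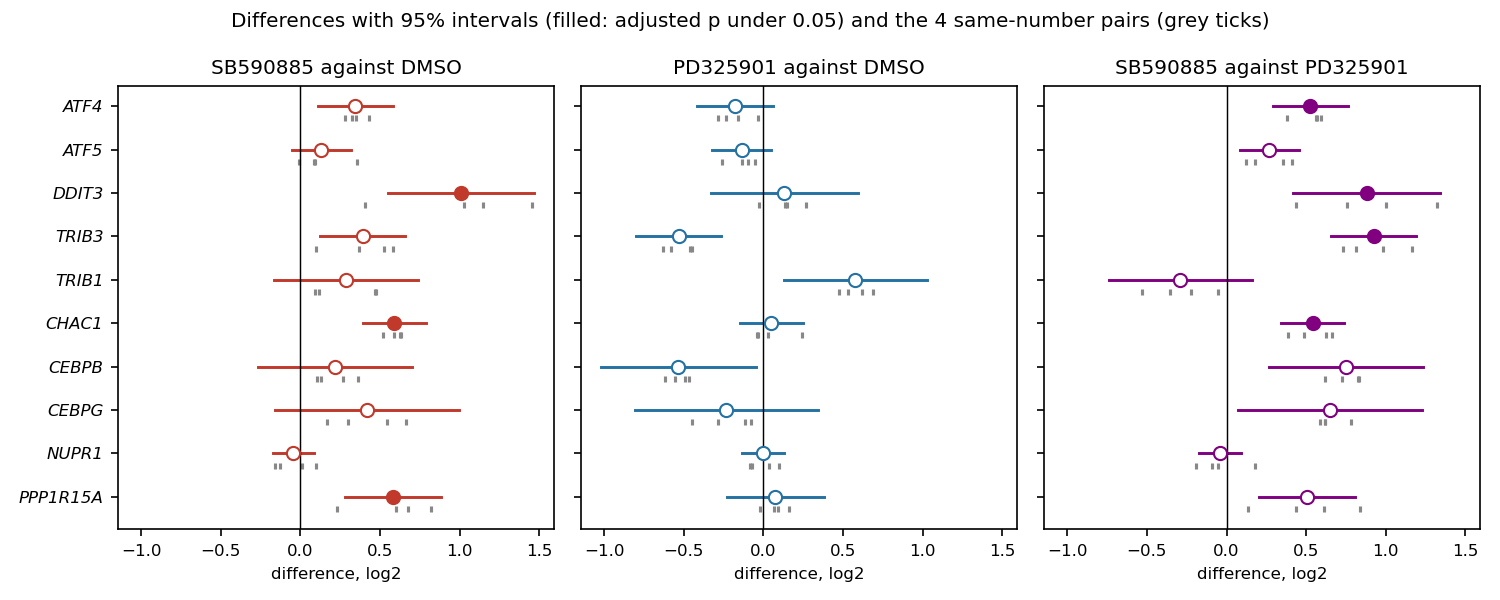
The horizontal axis is the difference in log2 expression between groups for the 10 genes, with the 95% interval of the limma fit and, as grey ticks, the 4 same-number pairs. Filled points passed at an adjusted p under 0.05: 3 for SB590885 against DMSO, 0 for PD325901 against DMSO and 4 for SB590885 against PD325901.

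ATF4 had its highest values with SB590885 and its lowest with PD325901. The 4 arrays read 12.89, 13.01, 12.84 and 12.73 with DMSO, 13.32, 13.36, 13.12 and 13.06 with SB590885, and 12.73, 12.98, 12.55 and 12.49 with PD325901. Every SB590885 array was above every array of the other groups, while the DMSO and PD325901 arrays overlapped. The groups that did not overlap in this upward direction for SB590885 against DMSO were those of 3 of the 10 genes (ATF4, DDIT3 and CHAC1), against 4.45% of all genes. ATF4 was higher with SB590885 than with PD325901 by 0.53 (SE 0.11, 1.44-fold, adjusted p = 0.0240), and by 0.49 and 0.57 on the arrays without and with the R mark. Against DMSO the difference was 0.35 with SB590885 (SE 0.11, adjusted p = 0.127, and 0.000215 with the replicate block) and -0.18 with PD325901 (adjusted p = 0.921, and 0.0371 with the block). The call between the inhibitors was lost when SB590885 array 1 or 2, or PD325901 array 3 or 4, was left out (adjusted p 0.0682 to 0.0830), with each array centred on its median (0.0702) and with only the 8 arrays compared (0.0817).

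ATF5 encodes a close relative of ATF4 that is likewise controlled by eIF2 phosphorylation. Its brightest probe set read 8.57, 8.62, 8.72 and 8.68 with DMSO, 8.66, 8.61, 8.81 and 9.04 with SB590885, and 8.48, 8.48, 8.46 and 8.63 with PD325901. The groups overlapped throughout. It did not pass in any comparison: the difference was 0.13 with SB590885 (adjusted p = 0.629), -0.14 with PD325901 (adjusted p = 0.931) and 0.27 between the inhibitors (adjusted p = 0.142, and 0.00422 with the replicate block). The 4 probe sets of ATF5 were not alike, since 204999_s_at was also lower with PD325901 in 4 of 4 pairs (-0.17) while 217389_s_at and 230938_x_at gave 0.08 and 0.01.

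On their brightest probe sets, both C/EBP partners of ATF4 had higher values with SB590885 and lower values with PD325901 in each pair. CEBPB encodes C/EBP beta, an interleukin-6-responsive transcription factor. It read 10.60, 10.83, 10.27 and 10.12 with DMSO, 10.96, 10.96, 10.54 and 10.22 with SB590885, and 10.13, 10.34, 9.71 and 9.50 with PD325901. The groups overlapped, but within a number the order was SB590885 over DMSO over PD325901 in 4 of 4. The PD325901 pairs differed by -0.47, -0.49, -0.56 and -0.62. The mean difference was -0.53 with PD325901 (95% interval -1.02 to -0.05, adjusted p = 0.635, and 1.23e-05 with the replicate block) and 0.22 with SB590885 (adjusted p = 0.852, and 0.00716 with the block). Between the inhibitors it was 0.75 (SE 0.22, adjusted p = 0.112, and 3.29e-07 with the block). Arrays with the R mark read 0.52 to 0.63 lower than those without it in each of the groups, which is as large as the difference with PD325901.

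CEBPG encodes C/EBP gamma, a partner with which ATF4 binds amino acid response elements. On its brighter probe set it read 9.29, 9.42, 9.004 and 8.73 with DMSO, 9.95, 9.96, 9.17 and 9.03 with SB590885, and 9.17, 9.34, 8.55 and 8.45 with PD325901. On this probe set too each number had SB590885 highest and PD325901 lowest, while the groups overlapped. The difference from DMSO was 0.42 with SB590885 (adjusted p = 0.617, and 0.000605 with the replicate block) and -0.23 with PD325901 (adjusted p = 0.985, and 0.0509 with the block). Between the inhibitors it was 0.65 (95% interval 0.07 to 1.23, adjusted p = 0.298, and 1.67e-05 with the block). Its other probe set, 225527_at, gave 0.30, -0.12 and 0.42 for the same comparisons. It did not keep the order in each pair: SB590885 pair 4 was -0.03 and PD325901 pair 2 was 0.0088 from DMSO. On the brighter probe set the SB590885 difference was 0.60 on arrays without the R mark and 0.23 on arrays with it. The limma test between these gave an unadjusted p of 0.0173 and an adjusted p of 0.652. CEBPG read 0.49 to 0.86 lower on arrays with the R mark than on those without it in each of the groups.

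A promoter of CEBPG held the core of the ATF and C/EBP composite element, the DNA sequence at which ATF4 and C/EBP dimers bind. The core was searched as TGATGNAA on both strands, together with the cyclic AMP response element TGACGTCA, in windows from 250 bases before to 50 after each RefSeq start (GRCh38.p14). Windows were held for 8 of the 10 genes, all but TRIB1 and NUPR1. The composite core lay in windows of 2 of these 8 genes, CEBPG and CHAC1, in 4.46% of all 27305 genes with a window and in 3.62% of all 35116 windows. The cyclic AMP response element lay in that of 1 gene, PPP1R15A, in 2.25% of all genes with a window and in 1.85% of all windows, and no window of these genes held both motifs. A match is a description of the letters and not a measured binding site. The CEBPG match begins 42 bases before 1 of its 2 listed starts, and is shown here with its neighbouring bases (chr19:33374060-33374089, strand of the gene, match in capitals).
CEBPG: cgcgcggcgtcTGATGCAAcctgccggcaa

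DDIT3, which encodes CHOP, showed the largest difference of the 10 genes with SB590885. It read 8.09, 8.41, 7.99 and 8.07 with DMSO, 9.54, 9.55, 9.02 and 8.48 with SB590885, and 8.22, 8.55, 8.26 and 8.04 with PD325901. All SB590885 arrays were above all DMSO arrays, and SB590885 array 4 was below PD325901 array 2. DDIT3 rose with SB590885 by 1.01 (SE 0.21, 2.01-fold, adjusted p = 0.0244, and 5.29e-05 with the replicate block). It was higher than with PD325901 by 0.88 (SE 0.21, adjusted p = 0.0487). The difference with PD325901 against DMSO was 0.13 (95% interval -0.33 to 0.59).

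The rise of DDIT3 was uneven. The pairs differed by 1.45, 1.15, 1.03 and 0.41. The difference was 1.30 on arrays without the R mark and 0.72 on arrays with it, and the test of that difference gave an unadjusted p of 0.0259 in limma and an adjusted p of 0.685. In the same test for SB590885 0 of the 10 genes were called, against 0.00506% of all genes, and 2 had an unadjusted p under 0.05 (DDIT3 and CEBPG), against 6.63%. The call against DMSO was lost without DMSO array 1, 3 or 4 or SB590885 array 1 or 2 (adjusted p 0.0669 to 0.0790), with arrays centred on their median (0.0526) and without the arrays numbered 2 in every group (0.104). The call against PD325901 was lost without any 1 of 11 of the 12 arrays, all but SB590885 array 4 (adjusted p 0.0547 to 0.148), and at 0.0952 with centred arrays. It was also lost when adjusted over all probe sets (0.0600) and without the arrays numbered 2 (0.147). With probe sets ending in _s_at, _x_at or _a_at left out it was lost at 0.0508.

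Among the genes that act downstream, TRIB3 had SB590885 and PD325901 values on opposite sides of DMSO. TRIB3 encodes a pseudokinase that ATF4 and CHOP induce and that binds both of them and the kinase AKT. It read 9.80, 9.90, 9.69 and 9.71 with DMSO, 10.16, 10.42, 10.28 and 9.81 with SB590885, and 9.35, 9.44, 9.11 and 9.08 with PD325901. All PD325901 arrays were below all arrays of the other groups, and SB590885 array 4 was below DMSO array 2. The 10 genes held 1, TRIB3, whose PD325901 arrays were all lower than the DMSO arrays, against 2.68% of all genes.

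TRIB3 was higher with SB590885 than with PD325901 by 0.92 (SE 0.12, 1.90-fold, adjusted p = 0.00215), and leaving out any of the 12 arrays did not end this call. On the arrays without and with the R mark the difference was 0.90 and 0.95. The groups of the inhibitors did not overlap upward for SB590885 in 3 of the 10 genes (ATF4, TRIB3 and CHAC1), against 4.68% of all genes. Against DMSO the difference was -0.53 with PD325901 (SE 0.12, adjusted p = 0.110, and 0.000239 with the replicate block) and 0.39 with SB590885 (SE 0.12, adjusted p = 0.124, and 0.00107 with the block). Without SB590885 array 4 both passed, at adjusted p = 0.0292 and 0.0214. A second probe set, 1555788_a_at, read between 7.00 and 7.33 on the 12 arrays and gave 0.09 with SB590885, -0.07 with PD325901 and 0.17 between them, with none passing.

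TRIB1, a relative of TRIB3 that brings C/EBP proteins to the ubiquitin ligase COP1, was higher than DMSO with both inhibitors in each pair on its brightest probe set. It read 11.41, 11.74, 11.31 and 10.98 with DMSO, 11.88, 11.86, 11.79 and 11.07 with SB590885, and 12.10, 12.22, 11.84 and 11.60 with PD325901. The groups overlapped. The difference was 0.58 with PD325901 (95% interval 0.13 to 1.03, adjusted p = 0.470, and 0.000120 with the replicate block) and 0.29 with SB590885 (95% interval -0.16 to 0.74, adjusted p = 0.694, and 0.00950 with the block). Between the inhibitors it was -0.29 (95% interval -0.74 to 0.16, adjusted p = 0.704, and 0.00889 with the block), lower with SB590885 in 4 of 4 pairs. Arrays with the R mark differed from those without it by -0.44 to -0.43 for TRIB1 in each of the groups. Its other probe sets, 235641_at and 239818_x_at, read between 6.20 and 6.53, near the low end of the scale. With SB590885 each gave -0.05 against DMSO, lower in 4 of 4 pairs. With PD325901 they gave -0.0034 and 0.04, and none of these differences passed.

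**Figure D3:**
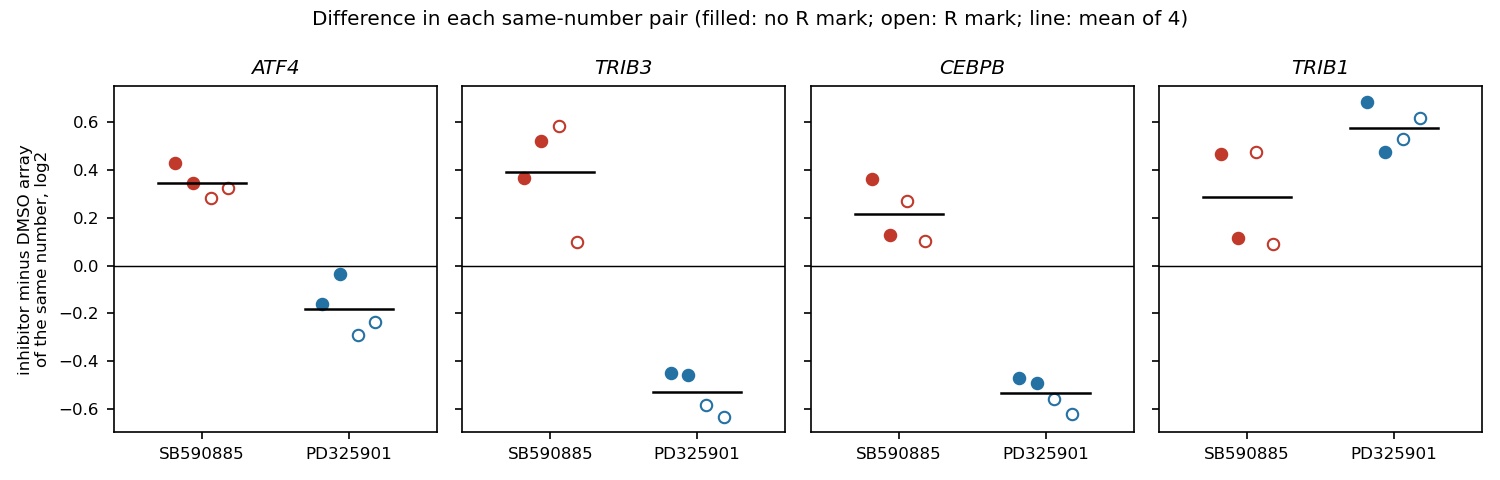
The vertical axis is the log2 difference between an inhibitor array and the DMSO array of the same number, for ATF4, TRIB3, CEBPB and TRIB1, with open points for pairs with the R mark and a line at the mean of 4. For ATF4, TRIB3 and CEBPB the SB590885 pairs lie above 0 and the PD325901 pairs below it in 4 of 4, and for TRIB1 both lie above 0.

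CHAC1 encodes an enzyme that breaks down glutathione and is a known target of ATF4. It read 7.25, 7.51, 7.49 and 7.23 with DMSO, 7.88, 8.09, 8.01 and 7.86 with SB590885, and 7.21, 7.47, 7.52 and 7.48 with PD325901. Every SB590885 array was above every array of the other groups, and the DMSO and PD325901 arrays overlapped. CHAC1 rose with SB590885 by 0.59 (SE 0.09, 1.51-fold, adjusted p = 0.00632) and was 0.54 higher than with PD325901 (SE 0.09, 1.45-fold, adjusted p = 0.00826). The pairs were close to each other, at 0.63, 0.59, 0.52 and 0.63 against DMSO.

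CHAC1 passed in both comparisons without any 1 of the 12 arrays, and against DMSO on the arrays without and with the R mark it gave 0.61 and 0.57. It missed the threshold when the arrays numbered 2 were left out in all groups, at adjusted p = 0.0540 against DMSO and 0.0647 against PD325901. Against DMSO the PD325901 difference was 0.05 (95% interval -0.15 to 0.25). The 250 bases before the CHAC1 start are shown because they hold the composite core, read on the other strand, with its first base 209 bases before the start (chr15:40953221-40953470, plus strand, match in capitals).
CHAC1: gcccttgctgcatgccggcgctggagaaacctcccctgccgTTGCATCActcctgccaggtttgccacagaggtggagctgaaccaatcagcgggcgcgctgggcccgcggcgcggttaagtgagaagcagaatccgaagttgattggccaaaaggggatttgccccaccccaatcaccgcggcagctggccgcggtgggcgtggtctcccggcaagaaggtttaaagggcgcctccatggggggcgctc

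PPP1R15A, whose protein GADD34 lets translation resume after stress, was the third gene called higher with SB590885. On its brighter probe set it read 7.48, 7.79, 7.47 and 7.53 with DMSO, 8.30, 8.46, 8.07 and 7.76 with SB590885, and 7.45, 7.85, 7.63 and 7.62 with PD325901. SB590885 array 4 again lay lowest of its group, within the range of the other groups. PPP1R15A rose with SB590885 by 0.58 (SE 0.14, 1.50-fold, adjusted p = 0.0435, and 0.000259 with the replicate block). Between the inhibitors the difference was 0.51 (SE 0.14, adjusted p = 0.0835, and 0.000675 with the block), and with PD325901 against DMSO it was 0.08 (95% interval -0.23 to 0.38).

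The rise of PPP1R15A lay near the threshold, and was 0.75 on the arrays without the R mark and 0.41 on those with it. It was lost without any 1 of 9 arrays (adjusted p 0.0516 to 0.132), and held without SB590885 array 4 or PD325901 array 1 or 2. It was also lost at 0.0918 with centred arrays, at 0.0678 with only the 8 arrays compared and at 0.0549 when adjusted over all probe sets. Without the arrays numbered 2 in every group it was lost at 0.0999. Its dimmer probe set, 202014_at, read 7.20, 7.36, 7.45 and 7.14 with DMSO and 7.91, 7.99, 7.67 and 7.46 with SB590885, without overlap, a difference of 0.47 (adjusted p = 0.0882 over all probe sets). The 250 bases before the PPP1R15A start are shown for the cyclic AMP response element, which begins 58 bases before the start (chr19:48872171-48872420, plus strand, match in capitals).
PPP1R15A: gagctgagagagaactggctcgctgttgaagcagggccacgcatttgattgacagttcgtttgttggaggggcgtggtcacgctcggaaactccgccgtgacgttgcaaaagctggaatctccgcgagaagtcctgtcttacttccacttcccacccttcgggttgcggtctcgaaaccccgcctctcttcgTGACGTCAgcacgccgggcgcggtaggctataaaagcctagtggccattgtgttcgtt

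NUPR1 encodes a small chromatin protein induced by stress. It read between 6.95 and 7.11 with DMSO, 6.95 and 7.11 with SB590885, and 6.93 and 7.15 with PD325901, near the median of all values. The groups overlapped. The difference was -0.04 with SB590885 (95% interval -0.17 to 0.09), -0.0036 with PD325901 (95% interval -0.13 to 0.13) and -0.04 between the inhibitors (95% interval -0.17 to 0.09).

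The genes most like those called were looked for over the 12 arrays, with the mean of each replicate number taken off, among 12865 genes. These correlations include the difference between groups and are given as a description. For DDIT3 the nearest were RHOB (r = 0.996), RND3 (r = 0.991) and ATF3 (r = 0.990), and PPP1R15A stood among them at r = 0.993. For PPP1R15A they were RHOB (r = 0.994), ATF3 (r = 0.988) and ZBED6 (r = 0.988). CHAC1 was nearest to RRAGC, SPSB3 and ZC2HC1A (r = 0.982 to 0.980). ATF4 was nearest to RAB8B, TMPO-AS1 and SIRT1 (r = 0.994 to 0.985), and TRIB3 to MYL12A, HMCES and TPM4 (r = 0.984 to 0.981). ATF3 encodes a stress-induced transcription factor, and RRAGC a GTPase that signals amino acids to mTORC1.

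The rest of the pathway was counted from lists of known genes. Of all genes, 3.28% were called for SB590885 against DMSO (18.9% with the replicate block), 0.592% for PD325901 against DMSO (8.14%) and 2.82% between the inhibitors (18.1%). Each count was repeated under 25 alternatives, the block included. Upstream, of 21 genes for eIF2 kinases, the exchange factor eIF2B and the eIF2 phosphatase, 0 rose and 3 fell with SB590885: EIF2B3 (-0.35), EIF2B5 (-0.25) and GCN1 (-0.32), the activator of the kinase GCN2. The list's median was -0.15, and with the replicate block 1 was higher and 10 lower. The higher gene was the eIF2 kinase gene EIF2AK3, at 0.62 (adjusted p = 0.535 in limma, and 0.00821 with the block). Its difference was 1.02 on arrays without the R mark and 0.21 on arrays with it. The count of 3 was 0 under quantile normalization, with a trended and robust variance, without the arrays numbered 2, and without DMSO array 1, 2 or 3 or SB590885 array 1 or 2. With PD325901 0 passed, and with the block 2 were higher and 3 lower. GCN1 was also 0.38 lower with SB590885 than with PD325901 (adjusted p = 0.00743), a call lost without the arrays numbered 2.

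Of 21 known ATF4 targets of amino acid supply, 5 rose with SB590885 and 0 fell. They were PCK2 (0.97), SLC7A11 (1.01), the cystine transporter subunit, and CTH (1.42), which makes cysteine. PHGDH (0.40) and SHMT2 (0.31) of serine and glycine metabolism were the others. The median of the list was 0.26, and with the replicate block 14 were higher and 1 lower, against 18.9% of all genes called. The count of 5 ranged from 1 to 15 over the alternatives. It was 2 with centred arrays, with only the 8 arrays compared, or without DMSO array 1 or 3 or SB590885 array 2 or 3, 3 without DMSO array 2 or 4 or SB590885 array 1, and 1 without the arrays numbered 2. With PD325901 0 passed, the median was -0.07, and with the block 0 were higher and 2 lower. Between the inhibitors 4 of the 21 were higher with SB590885, namely PHGDH, SHMT2, PCK2 and SLC7A11. This count of 4 ranged from 2 to 14 over the alternatives. It was 2 with centred arrays, with only the 8 arrays compared and without the arrays numbered 2. SLC7A11 was also the 1 gene that rose with SB590885 of 13 in glutathione synthesis and breakdown. Between the inhibitors the count of these 13 was also 1, and it was 0 in 12 of the 25 alternatives.

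Among 13 measured genes of aminoacyl-tRNA synthetases and tRNA export, GARS1 (0.39) and SARS1 (0.32) rose with SB590885 and LARS1 fell by 0.43. This count of 3 ranged from 0 to 7, and was 0 with centred arrays, without the arrays numbered 2, and without DMSO array 1 or SB590885 array 2. The list went both ways: its median was -0.015, and with the replicate block 3 of the 13 were higher and 4 lower. Of 16 ATF4 targets that brake growth or answer stress, 2 rose with SB590885: SESN2 (1.02, adjusted p = 0.00130), an inhibitor of mTORC1, and ATF3 (1.51, adjusted p = 0.0446). With the replicate block 8 of these 16 were higher and 1 lower. The count of 2 ranged from 1 to 9 over the alternatives. Between the inhibitors SESN2 (1.04) and EIF4EBP1 (0.45), a repressor of translation, were higher with SB590885 and VLDLR was lower (-0.28). This count of 3 also ranged from 1 to 9. It was 1 with centred arrays, with only the 8 arrays compared and without the arrays numbered 2. With probe sets ending in _s_at, _x_at or _a_at left out it was 1 too. With PD325901 0 of the 16 passed against DMSO, and 2 were higher and 1 lower with the block.

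Of 8 CHOP targets, ATF3 alone passed against DMSO, with SB590885. This call was lost in 16 of the 25 alternatives, among them centred arrays, adjustment over all probe sets, only the 8 arrays compared and the loss of any 1 of 10 arrays, all but SB590885 array 4 and PD325901 array 2. The differences of the others with SB590885 were BCL2L11 at 0.74 (adjusted p = 0.0770, groups not overlapping), DDIT4 at 0.57, GADD45A at 0.30, TNFRSF10B at 0.29, PMAIP1 at 0.14, WARS1 at 0.09 and ERO1A at -0.16. With PD325901 they were GADD45A at 0.60, BCL2L11 at 0.53, ATF3 at 0.33, WARS1 at 0.10, ERO1A at -0.14, TNFRSF10B at -0.32, PMAIP1 at -0.47 and DDIT4 at -0.69, and 0 passed. With the replicate block 4 were higher and 0 lower with SB590885, and 2 were higher and 2 lower with PD325901. TNFRSF10B, the death receptor DR5, was higher with SB590885 than with PD325901 by 0.61 (adjusted p = 0.0291), a call lost in 9 of the 25 alternatives, centred arrays, only the 8 arrays compared and the loss of SB590885 array 1 or 2 or PD325901 array 2, 3 or 4 among them.

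Of 17 genes of the other arms of the unfolded protein response, run by IRE1 and ATF6, ERN1, which encodes the sensor IRE1, rose with SB590885 by 1.26 (adjusted p = 0.00605), and XBP1, whose RNA IRE1 splices, fell by 0.62 (adjusted p = 0.0317). The median of the list was -0.08 with SB590885 and 0.24 with PD325901. With PD325901 0 passed, and with the replicate block 10 were higher and 0 lower, against 8.14% of all genes called. The counts ranged from 0 to 7 with SB590885, 0 only without the arrays numbered 2, and from 0 to 10 with PD325901. Between the inhibitors ERN1 was higher with SB590885 and 4 genes were lower: XBP1 (-0.78), SDF2L1 (-0.63), SEL1L (-0.42) and MANF (-0.39). This count of 5 ranged from 3 to 14. It was 3 with centred arrays, with a trended and robust variance, with only the 8 arrays compared and without the arrays numbered 2.

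**Figure D4:**
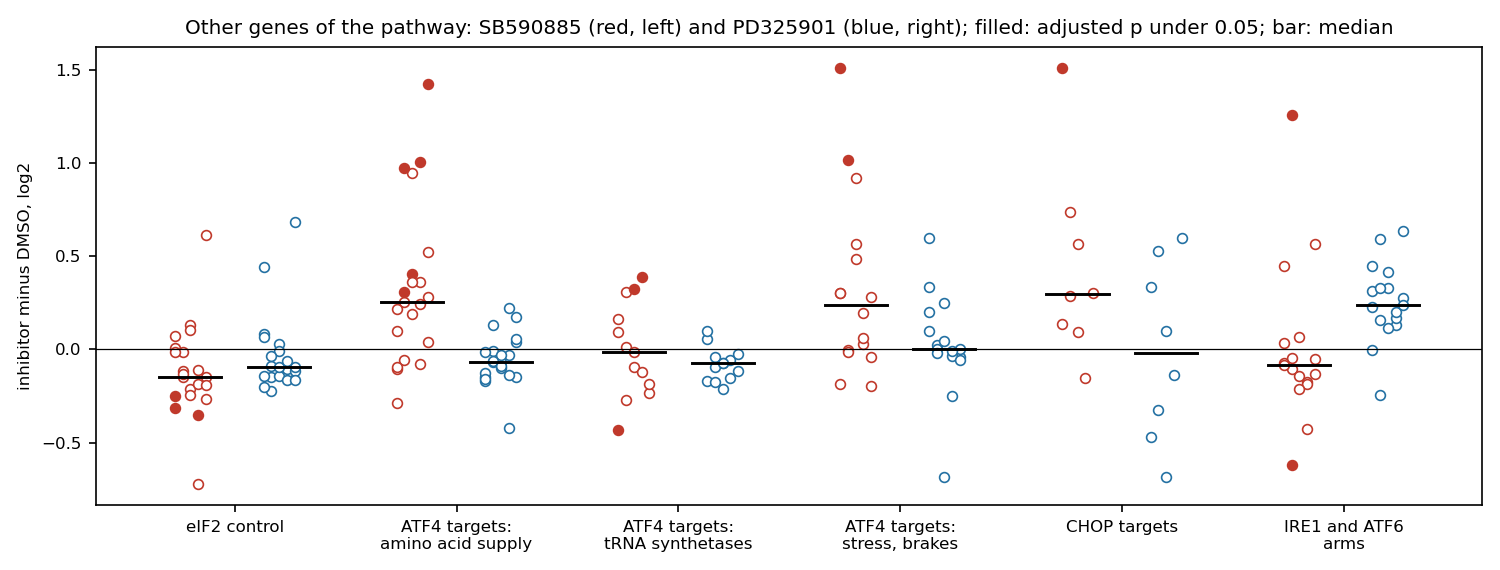
Each point is the log2 difference from DMSO of 1 gene of a list (vertical axis), with SB590885 on the left and PD325901 on the right of each list, filled where the adjusted p was under 0.05 and with a bar at the median. For ATF4 targets of amino acid supply the medians were 0.26 and -0.07, and for the IRE1 and ATF6 arms -0.08 and 0.24.

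Among 15 measured partners of the C/EBP and ATF family, ATF3 rose and BATF fell by 0.37 with SB590885, a count of 2 that ranged from 0 to 5, and 0 passed with PD325901. Of 8 genes of the tribbles family and its partners, TRIB2, the remaining tribbles gene, fell with PD325901 by 0.45 (adjusted p = 0.0416). That call was lost in 14 of the 25 alternatives, among them centred arrays, adjustment over all probe sets, a trended and robust variance, only the 8 arrays compared, and the loss of any 1 of 9 arrays, all but DMSO array 4, SB590885 array 2 and PD325901 array 2. TRIB2 differed from DMSO by -0.17 with SB590885 (adjusted p = 0.447). The partners had differences of -0.24 to 0.21 with SB590885 and -0.24 to -0.05 with PD325901, and 0 passed: COP1, STK40, AKT1, AKT2, MAP2K1, MAP2K4 and ACACA. MAP2K1, which encodes MEK1, differed from DMSO by -0.02 with SB590885 and -0.13 with PD325901.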

How the data were processed

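The deposited values are RMA expression values on the log2 scale, per the submitters' processing notes, which also name R 3.0.1. They were used without further centring. After removal of 62 control probe sets, 41091 probe sets had 1 gene symbol in the annotation, 1801 had several and 11721 had none. Genes were named from those with 1 symbol, brought up to date with the reference table. For each of 19775 genes the probe set of highest mean was used, and all probe sets of the 10 genes were also fitted singly.

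The test was limma 3.58.1 in R 4.3.3, with a mean per group fitted to all 12 arrays, a common spread, empirical Bayes moderation and Benjamini-Hochberg adjustment over all genes of a contrast. A gene was called at an adjusted p under 0.05. Values after ± are SD over 4 arrays, and SE and 95% intervals come from the fit. Scripts were tested on simulated data.

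Deviations from the group mean of same-numbered arrays correlated at r = 0.544 to 0.913 in 12 of 12 pairs, and each of the 12 arrays matched best with one of its own number. The replicate number was therefore used as a block in an alternative fit and for the same-number pairs, and the main fit left it out. The labels give the numbers and not what they mark. Differences between the arrays numbered 2 and 1 correlated over genes at r = 0.859 for DMSO with PD325901, 0.212 for SB590885 with DMSO and 0.186 for SB590885 with PD325901, and those between numbers 4 and 3 at 0.346, 0.0675 and 0.100. Fits with the R mark as a term are therefore also given.

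The 10 genes, the gene lists and the tests were chosen with earlier results of these data known. The rule named all 10 genes, up to 4 genes of each list with the smallest p for SB590885 against DMSO among those that passed in any comparison (lists of 8 or fewer whole), and the 3 genes most correlated with each called gene. CTH, EIF2AK3, SDF2L1, SEL1L and MANF were named after their values were seen where the rule did not reach them. Of the listed genes, 7 were not analysed here. The number of arrays limits the precision. Alternatives included leaving out each array, other scalings, other probe sets and the arrays with and without the R mark.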

Additional observations from a re-analysis of the deposited data

Results flagged for a closer look

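In each gene and group the highest and lowest of the 4 arrays was compared with the other arrays. Of the 30 sets, 3 had an array far from the rest, and chance alone flags about 1 in 20 such groups. ATF5 on PD325901 array 4 read 8.63 against 8.46 to 8.48 on the other arrays of its group. TRIB1 on SB590885 array 4 read 11.07 against 11.79 to 11.88. NUPR1 on SB590885 array 4 read 7.11 against 6.95 to 6.96. SB590885 array 4 was the lowest of its group for 8 of the 10 genes, all but ATF5 and NUPR1. Array 4 was the lowest for 5 of the 10 with DMSO and 7 of the 10 with PD325901. The shares of all genes lowest on these arrays were not counted, so these counts are not a trait of the 10 genes. Both flagged arrays carry the R mark.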

How the results depend on the processing

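For SB590885 against DMSO, PD325901 against DMSO and SB590885 against PD325901, in that order, the main counts were 3, 0 and 4 of the 10 genes and 649, 117 and 558 of all genes. With the replicate block they were 8, 4 and 9 of the 10, and 3742, 1610 and 3582 of all. With the R mark as a term they were 6, 3 and 8, and 3331, 1289 and 3187. On arrays without the R mark alone 6 and 7 of the 10 passed with SB590885 against DMSO and against PD325901, and 2637, 186 and 2358 of all genes. On arrays with it alone 3 and 7 passed in the comparisons with PD325901, and 1066, 1079 and 1770 of all. Quantile normalization gave 5 and 2 of the 10 against DMSO, and 1634, 349 and 1555 of all. Centring each array on its median gave 1 of the 10 with SB590885 against DMSO and 2 between the inhibitors, and 382 and 307 of all. Fitting only the 8 arrays compared gave 2 of the 10 and 225 of all between the inhibitors. Without the arrays numbered 2 there were 0 and 2 of the 10 with SB590885 against DMSO and PD325901, and 78, 63 and 180 of all. With the mean of a gene's probe sets 1 of the 10 passed with PD325901 against DMSO. Leaving out 1 array at a time gave 1 to 4, 0 to 1 and 2 to 5 of the 10, and 245 to 691, 72 to 126 and 281 to 509 of all genes. Fits on fewer arrays have fewer samples, and the cause of the other shifts was not tested.

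Directions of the 10 genes were kept under these alternatives with 2 exceptions, both for PD325901 against DMSO and neither called. CHAC1 was -0.036 on arrays without the R mark. NUPR1 was 0.015 there, and -0.042 to 0.033 with 1 array left out. Genes read near the lowest array values, between 5.85 and 6.01, can have their differences compressed, which was not tested.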
